A study of Mus musculus with 18 samples.

Results

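Liver RNA of ovariectomized obese mice was examined for 27 genes of cholesterol synthesis and its control by the transcription factor SREBP2. They were 18 enzymes of the route that makes cholesterol, 4 regulators, 3 genes of sterol handling and 2 genes that supply acyl-CoA. The genes were chosen by name as known members of the pathway, not by their values, although the choice was made with earlier results of these data known. All 27 were found among the 40840 genes of both count tables, and all 27 passed the filter on low counts in both models. They do not hold every gene of the pathway.

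The mice were female C57BL/6 animals without ovaries, so every group, vehicle included, lacked ovarian estrogen. In the diet-induced obesity (DIO) model, wild-type mice were fed high-fat chow that drew 45% of its energy from fat and held 0.2% cholesterol. In the ob/ob model, mice without functional leptin ate a normal AIN-76A diet. In each model an osmotic minipump released PaPE (PaPE-1, one of the pathway preferential estrogens, a synthetic ligand related to E2) at 300 µg per kg per day, E2 (estradiol) at 5 µg per kg per day, or vehicle (DMSO, ethanol and saline) for 6 weeks. The doses of the ligands differ by design, so PaPE against E2 compares treatment groups and not compounds at a matched dose. Each of the 6 groups has 3 libraries, 18 in all, although the sample protocol speaks of 2 sequenced per group. Values are always given in the order of replicates 1, 2 and 3, which are names and pair nothing across groups.

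Cholesterol synthesis starts from acetyl-CoA, passes through mevalonate and farnesyl diphosphate to squalene, closes the ring to lanosterol and then trims lanosterol to cholesterol. When sterols in the endoplasmic reticulum are low, the escort protein Scap carries SREBP2 to the Golgi, where it is cut, and the freed part turns on nearly every enzyme of the route together. When sterols are high, Insig proteins hold Scap back. The liver makes much of the body's cholesterol, and the pathway there is known to move with cholesterol in the diet, feeding and insulin. In bulk liver, fewer cells of a type and less RNA per cell cannot be told apart.

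The DIO libraries held 16651616 to 21703791 counted reads each, and the ob/ob libraries 10470665 to 17021370. Expression is given as CPM, the count of a gene scaled to the TMM-adjusted size of its library, and the lowest count of a vehicle library for any of the genes was 69, for Idi1. DIO PaPE libraries went lower, to counts of 18 for Idi1, 25 for Mvd and 34 for Sqle. Hepatocyte markers took between 90531 and 166029 CPM summed over 11 genes, and no listed marker of any liver cell type was at 0 in all libraries of a model. The library labelled E2 replicate 2 in DIO mice stood apart. Cyp3a44, a cytochrome P450 gene chosen for this check after its values were seen, had 883, 12.8 and 569 CPM in DIO E2 livers, against 7.42, 5.20 and 10.6 CPM in DIO vehicle livers. Replicate 2 was therefore near the vehicle level for this gene, and results that rest on it are given with and without it. Other values were mixed. Over 12 Kupffer cell markers, mean log2 CPM relative to the vehicle mean was 0.95, 0.41 and 0.47 in DIO E2 livers. In DIO vehicle livers it was -0.20, -0.01 and 0.21. Esr1, the estrogen receptor alpha gene, had 81.0, 44.7 and 99.0 CPM in these E2 livers. It had 46.5, 32.5 and 33.7 CPM in DIO vehicle livers. Whether this library differed in treatment was not tested.

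The promoters of these genes are shown first, because the shared control of the pathway is thought to act there. SREBP2 binds sterol regulatory elements (SRE), and NF-Y, which binds CCAAT boxes, is a known partner. In the RefSeq promoter table on build GRCm38.p6, which is not the GRCm39 build of the counts, 23 of the 27 genes matched with 29 promoters, and the 250 bases before each start were searched on both strands. Printed 5′ to 3′ on the gene's strand, capitals mark CCAAT or its reverse complement ATTGG, and TCACCCCAC with up to 1 mismatch. The Hmgcs1 promoter (chr13:119690101-119690350, plus strand) holds the element TCACNCCAC, Mvk (chr5:114444019-114444268, plus strand) has the most CCAAT boxes, Nsdhl (chrX:72918271-72918520, plus strand) has a near match, Ebp (chrX:8193513-8193762, minus strand) belongs to the gene with the smallest p below, and Scap (chr9:110333038-110333287, plus strand) has neither motif.
Hmgcs1: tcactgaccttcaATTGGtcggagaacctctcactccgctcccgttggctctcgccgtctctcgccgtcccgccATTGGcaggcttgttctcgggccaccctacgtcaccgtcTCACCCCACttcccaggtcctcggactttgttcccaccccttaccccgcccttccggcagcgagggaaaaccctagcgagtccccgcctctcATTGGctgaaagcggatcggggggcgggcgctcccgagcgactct
Mvk: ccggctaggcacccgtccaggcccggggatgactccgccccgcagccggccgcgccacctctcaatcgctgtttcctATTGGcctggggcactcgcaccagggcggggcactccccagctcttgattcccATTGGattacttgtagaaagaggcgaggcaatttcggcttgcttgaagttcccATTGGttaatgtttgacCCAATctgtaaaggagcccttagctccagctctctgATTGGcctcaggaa
Nsdhl: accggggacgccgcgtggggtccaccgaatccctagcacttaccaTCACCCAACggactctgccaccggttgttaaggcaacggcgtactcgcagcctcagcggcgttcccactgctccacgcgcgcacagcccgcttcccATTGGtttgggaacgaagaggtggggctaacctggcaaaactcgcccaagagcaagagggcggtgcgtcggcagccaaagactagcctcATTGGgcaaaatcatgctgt
Ebp: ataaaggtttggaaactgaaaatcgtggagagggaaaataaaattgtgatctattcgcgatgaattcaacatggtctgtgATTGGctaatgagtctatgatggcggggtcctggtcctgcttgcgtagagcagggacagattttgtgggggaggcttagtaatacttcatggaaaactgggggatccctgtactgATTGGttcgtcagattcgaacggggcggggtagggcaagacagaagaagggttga
Scap: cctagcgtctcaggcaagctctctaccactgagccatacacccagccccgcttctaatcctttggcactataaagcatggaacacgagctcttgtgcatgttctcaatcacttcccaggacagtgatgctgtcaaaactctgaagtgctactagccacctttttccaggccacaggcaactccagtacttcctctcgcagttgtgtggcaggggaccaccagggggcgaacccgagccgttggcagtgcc

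CCAAT was found in 20 of the 29 promoters (69%), against 33.8% of all 32851 promoters of the table. It occurred more than once in 12 of the 29 (41.4%), against 10.1% of all promoters, and Mvk held 5 copies. Promoters of the pathway therefore held this box more often than promoters in general, and 20 of the 23 matched genes had at least 1 promoter with it. TCACNCCAC was found only in the Hmgcs1 promoter among these genes (3.45%, against 1.05% of all), starting 137 bases before the start. TCACCCCAC with up to 1 mismatch was found in 6 of the 29 (20.7%), against 8.47% of all, namely in Acat2, Hmgcs1, Nsdhl, Hsd17b7, Srebf2 and Mylip. These are matches of letters and not measured binding, and the search window leaves out elements farther away.

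The spread between vehicle libraries was wide for this pathway. A module score was computed per library as the mean over the 27 genes of log2 CPM minus the mean of the vehicle libraries of the model. It was 0.65, -0.54 and -0.11 in DIO vehicle livers and 0.62, -0.23 and -0.39 in ob/ob vehicle livers. In each model vehicle replicate 1 stood above the other vehicle libraries, and it held the highest vehicle value for 25 of the 27 genes in DIO mice and again for 25 of the 27 in ob/ob mice. Over all genes tested, that library held the highest vehicle value for 36.2% in DIO mice and 31.8% in ob/ob mice. The highest vehicle library was at least 2 times the lowest for 17 of the 27 genes in DIO mice, against 6.21% of all genes tested, and for 15 of the 27 in ob/ob mice, against 9.71% of all.

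**Figure D1:**
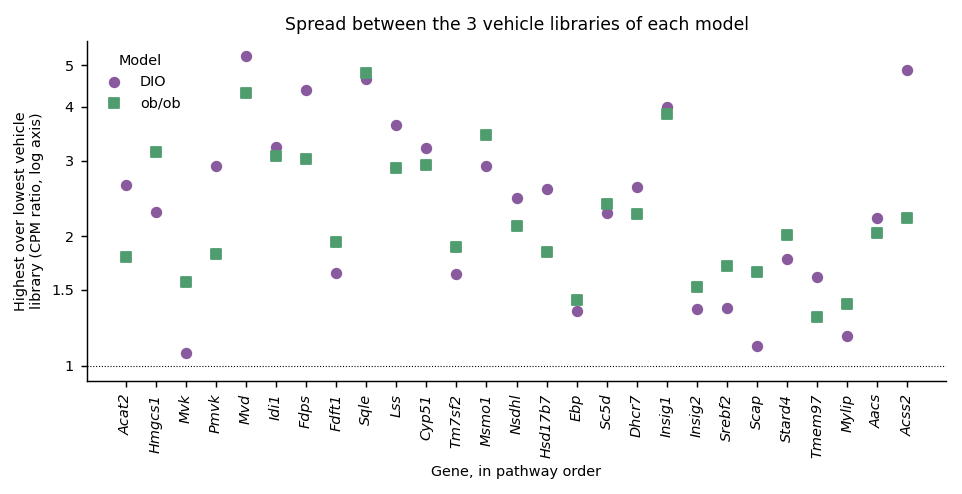
Ratio of the highest to the lowest of the 3 vehicle libraries (CPM, log axis) for each of the 27 genes in pathway order, with circles for DIO mice and squares for ob/ob mice. Mvd, Acss2 and Sqle were the widest in DIO mice, and Mvk, Scap, Mylip and Ebp stayed within a ratio of 1.34 there.

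The widest genes were mostly enzymes. Mvd, which makes isopentenyl diphosphate from mevalonate diphosphate, had 26.8, 5.11 and 8.82 CPM in DIO vehicle livers, a ratio of 5.25 between the highest and the lowest. Acss2, the cytosolic acetyl-CoA synthetase, had 745, 153 and 245 CPM there, a ratio of 4.87. Sqle, the squalene monooxygenase, had 47.6, 10.3 and 20.1 CPM, a ratio of 4.64. In these genes replicate 1 was high and replicates 2 and 3 were low. In ob/ob vehicle livers, Sqle was again the widest, with 115, 44.3 and 23.99 CPM and a ratio of 4.79. Mvd had 38.2, 16.3 and 8.86 CPM there, a ratio of 4.31. Insig1, which holds Scap back and is itself an SREBP target, had 510.1, 188 and 133 CPM, a ratio of 3.84.

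A few genes went the other way or stayed narrow. Insig2, the Insig gene that in mouse liver is known to be lowered by insulin, had 316, 471 and 482 CPM in ob/ob vehicle livers, so replicate 1 was the lowest there while Insig1 was the highest. In DIO vehicle livers Insig2 had 219.7, 163 and 187 CPM, with replicate 1 the highest. Mvk, the mevalonate kinase, had 8.23, 8.43 and 8.82 CPM in DIO vehicle livers, a ratio of only 1.07. Mylip, an E3 ligase that marks lipoprotein receptors for breakdown and is known as an LXR target rather than an SREBP2 target, had 11.3, 13.96 and 15.8 CPM in ob/ob vehicle livers, again lowest in replicate 1.

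**Figure D2:**
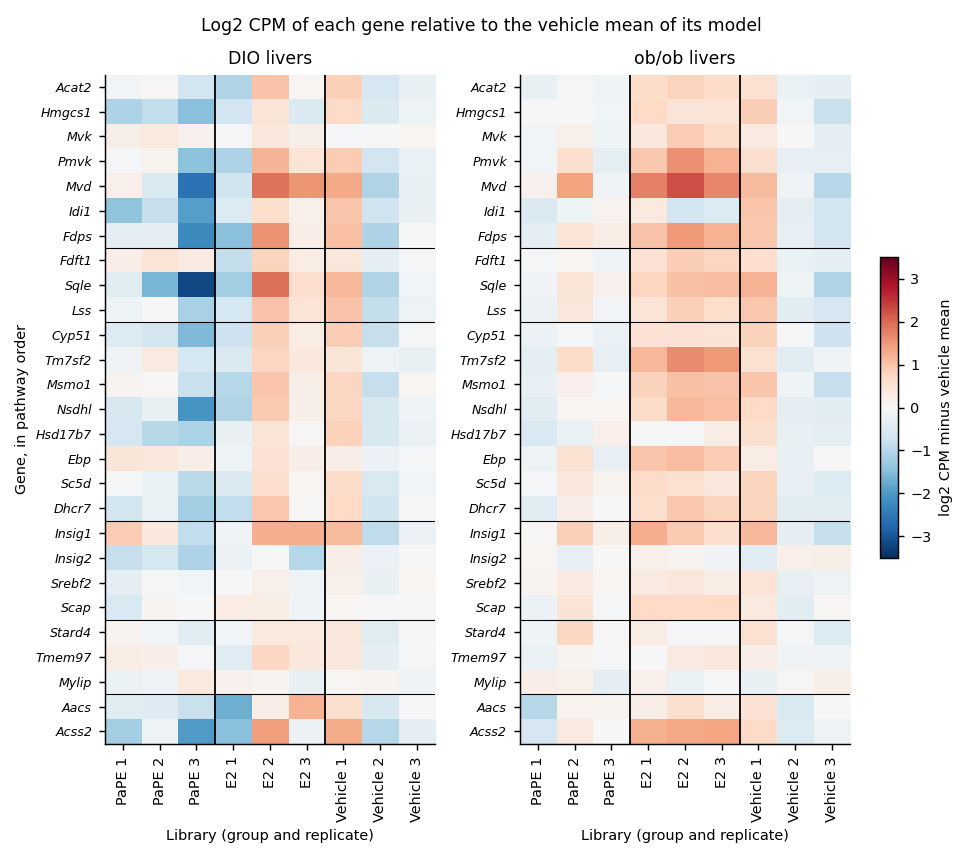
Log2 CPM of each gene in each library minus the vehicle mean of its model (colour), with libraries in columns by group and replicate and genes in rows in pathway order, separated into mevalonate steps, squalene to lanosterol, lanosterol to cholesterol, regulators, sterol handling and acyl-CoA supply. Vehicle replicate 1 is red in most rows of both models, and PaPE replicate 3 of DIO mice is the lowest of 9 libraries for 15 of the 27 genes.

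The spread within a group was also wide under both ligands in DIO mice, and narrower under both in ob/ob mice. In DIO mice, the ratio of highest to lowest was at least 2 for 10 of the 27 genes in PaPE livers, for 19 in E2 livers and for 17 in vehicle livers. In ob/ob mice the numbers were 2 in PaPE livers, 1 in E2 livers and 15 in vehicle livers. The share over all genes tested lay between 6.21% and 13.1% in these groups. The median ratio was 1.52 in ob/ob PaPE livers, against 1.29 over all genes tested, and 1.25 in ob/ob E2 livers, against 1.26 over all genes tested. Per kilobase of exon, the highest mean in DIO vehicle livers was 184 CPM for Sc5d, a late desaturase, and the lowest was 1.95 CPM for Idi1, the isopentenyl diphosphate isomerase.

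In DIO livers PaPE was compared with vehicle to ask whether the ligand changed the pathway on a high-fat diet with cholesterol. The module score was -0.26, -0.21 and -1.01 in PaPE livers, against 0.65, -0.54 and -0.11 in vehicle livers. The groups overlapped, with a mean of -0.49 ± 0.45 in PaPE livers and 0.00 ± 0.61 in vehicle livers (SD, n = 3 each). The difference of -0.49 rested largely on PaPE replicate 3 and vehicle replicate 1, and was -0.23 without PaPE replicate 3 and -0.16 without vehicle replicate 1. No gene of the 13884 tested, and so none of the 27, passed an adjusted p of 0.05 by edgeR's quasi-likelihood test. DESeq2 called 524 genes higher and 228 lower, with 4 of the 27 among the lower, and limma voom called none. edgeR called 129 genes higher and 24 lower without PaPE replicate 2, 387 and 224 without E2 replicate 1, and 123 and 70 without E2 replicate 2, again with 0 of the 27.

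**Figure D3:**
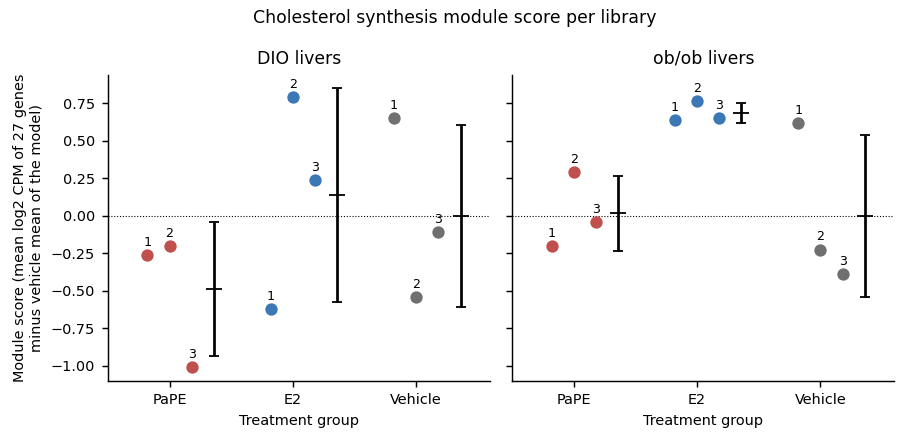
Module score (mean over the 27 genes of log2 CPM minus the vehicle mean of the model) of each library, labelled by replicate number, for PaPE, E2 and vehicle in DIO livers (left) and ob/ob livers (right), with bars at the mean ± SD. The 3 ob/ob E2 libraries lie together between 0.64 and 0.76, and ob/ob vehicle replicate 1, at 0.62, lies just below them.

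At an unadjusted p under 0.05, 4 of the 27 genes were lower with PaPE in DIO livers, against a background of 9.68% of all genes, and 0 were higher, against 11.4%. The same 4 genes were the ones whose PaPE libraries all lay below all vehicle libraries, against a background of 15.8% of all genes. As a share of 27 genes, 4 is near both backgrounds. In the same comparison, hepatocyte markers summed to 114246 to 135305 CPM in PaPE livers, against 90531 to 103078 CPM in vehicle livers, and their part in the result was not tested. Insig2 had 108, 123 and 89.3 CPM in PaPE livers, against 219.7, 163 and 187 CPM in vehicle livers. Every PaPE liver was below every vehicle liver, and its log2 fold change was -0.83 ± 0.23 (SE), with an adjusted p of 0.0966 by edgeR.

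The other genes of this kind were Hmgcs1 and Idi1 of the mevalonate steps and Hsd17b7 of the steps from lanosterol to cholesterol. Hmgcs1, the HMG-CoA synthase, had 88.4, 102 and 67.2 CPM in PaPE livers, against 297, 131 and 164 CPM in vehicle livers. Its log2 fold change was -1.20 ± 0.37 (SE), with an adjusted p of 0.131 by edgeR. Idi1 had 1.79, 2.77 and 1.22 CPM in PaPE livers, against 9.72, 3.01 and 4.07 CPM in vehicle livers, at a log2 fold change of -1.51 ± 0.48 and an adjusted p of 0.132 by edgeR. The gap between the groups was small for Idi1, whose highest PaPE liver was just below its lowest vehicle liver. Its lowest count was 18 in PaPE livers and 69 in vehicle livers. Hsd17b7, a sterol ketone reductase, had 25.7, 19.3 and 17.8 CPM in PaPE livers, against 66.5, 25.8 and 32.8 CPM in vehicle livers, at a log2 fold change of -0.99 ± 0.34 and an adjusted p of 0.151 by edgeR.

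Among the other genes only Mvk separated, upward, with 9.79, 10.8 and 9.39 CPM in PaPE livers, against 8.23, 8.43 and 8.82 CPM in vehicle livers. All PaPE libraries lay above all vehicle libraries for 16.4% of all genes, and the log2 fold change of Mvk was 0.24 ± 0.16 with an adjusted p of 0.417 by edgeR. The median log2 fold change of the 27 genes was -0.46, against -0.03 over all genes tested, and 5 of the 27 values were above 0. By steps, the median was -0.92 for the 7 mevalonate enzymes, -0.57 for the 3 enzymes from squalene to lanosterol and -0.60 for the 8 enzymes from lanosterol to cholesterol. It was -0.14 for the 4 regulators. Sqle had 16.1, 7.05 and 2.30 CPM in PaPE livers, against 47.6, 10.3 and 20.1 CPM in vehicle livers, so PaPE replicate 1 lay above vehicle replicate 2. Its log2 fold change of -1.61 had a 95% interval from -4.02 to 0.80. Mvd had 12.1, 7.54 and 1.69 CPM in PaPE livers, and Acss2 had 132, 270.2 and 77.3 CPM, with PaPE replicate 3 the lowest of both. Ebp, a sterol isomerase, had 277, 266 and 241 CPM in PaPE livers, against 242, 181 and 203 CPM in vehicle livers, at a log2 fold change of 0.32 ± 0.18.

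E2 was compared with vehicle in DIO livers in the same way. The module score was -0.62, 0.79 and 0.24 in E2 livers, against 0.65, -0.54 and -0.11 in vehicle livers, so the groups overlapped over nearly their whole range. None of the 27 genes passed an adjusted p of 0.05, as none of all 13884 genes did by edgeR. DESeq2 called 19 genes higher and 5 lower, and limma voom 0, none of them among the 27. At an unadjusted p under 0.05, 0 of the 27 were higher, against 2.72% of all genes, and 0 were lower, against 2.5%. E2 replicate 2, the library near the vehicle level for Cyp3a44, held the highest value of all 9 libraries for 14 of the 27 genes. Without it the difference in score was -0.19 in place of 0.13, and edgeR called 67 genes higher and 66 lower, with 0 of the 27.

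The genes with the smallest p here were Insig2, Ebp, Mvk and Tmem97. Insig2 had 164, 187 and 94.3 CPM in E2 livers, against 219.7, 163 and 187 CPM in vehicle livers, at a log2 fold change of -0.36 ± 0.23. Ebp had 184, 297 and 243 CPM in E2 livers, against 242, 181 and 203 CPM in vehicle livers, at 0.21 ± 0.18. Both sets of values overlapped. Mvk had 8.09, 11.02 and 9.71 CPM in E2 livers, against 8.23, 8.43 and 8.82 CPM in vehicle livers, at 0.18 ± 0.16. Tmem97, a sterol-responsive membrane protein that binds the cholesterol transporter NPC1, had 59.0, 131 and 101 CPM in E2 livers, against 102, 63.4 and 75.4 CPM in vehicle livers, at 0.27 ± 0.26. The adjusted p of all 4 was 0.9999 by edgeR. The value of Tmem97 was -0.01 without E2 replicate 2.

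Between the ligands in DIO livers, the module score differed by -0.63 (PaPE minus E2), and by -0.30 without E2 replicate 2. edgeR called 3 genes higher and 2 lower with PaPE than with E2, none of them among the 27, while DESeq2 called 126 higher and 112 lower, with 1 of the 27 among the lower, and limma voom called none. Without E2 replicate 2 edgeR called 361 genes higher and 435 lower, again with 0 of the 27. At an unadjusted p under 0.05, 3 of the 27 were lower with PaPE, against 8.62% of all genes, and 0 were higher, against 8.41%. Those 3 were Hmgcs1, Idi1 and Hsd17b7. Hmgcs1 had 88.4, 102 and 67.2 CPM in PaPE livers, against 116, 254 and 130.5 CPM in E2 livers, at a log2 fold change of -0.96 ± 0.37. Idi1 had 1.79, 2.77 and 1.22 CPM in PaPE livers, against 3.53, 7.59 and 5.60 CPM in E2 livers, at -1.50 ± 0.48. Hsd17b7 had 25.7, 19.3 and 17.8 CPM in PaPE livers, against 31.8, 52.0 and 39.3 CPM in E2 livers, at -0.97 ± 0.34. The adjusted p was 0.249 for Hmgcs1, 0.197 for Idi1 and 0.222 for Hsd17b7 by edgeR. All PaPE libraries lay below all E2 libraries for these genes. The share of all genes that separate in this way was not counted, so no background stands beside it. Without E2 replicate 2 only 1 of the 27 genes was lower at an unadjusted p under 0.05, against 13.9% of all genes. Without E2 replicate 1, 9 of the 27 were, against 4.39% of all genes. Insig2, next by p, had 108, 123 and 89.3 CPM in PaPE livers, against 164, 187 and 94.3 CPM in E2 livers, at -0.47 ± 0.23 and an adjusted p of 0.314 by edgeR, and its groups overlapped through E2 replicate 3.

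**Figure D4:**
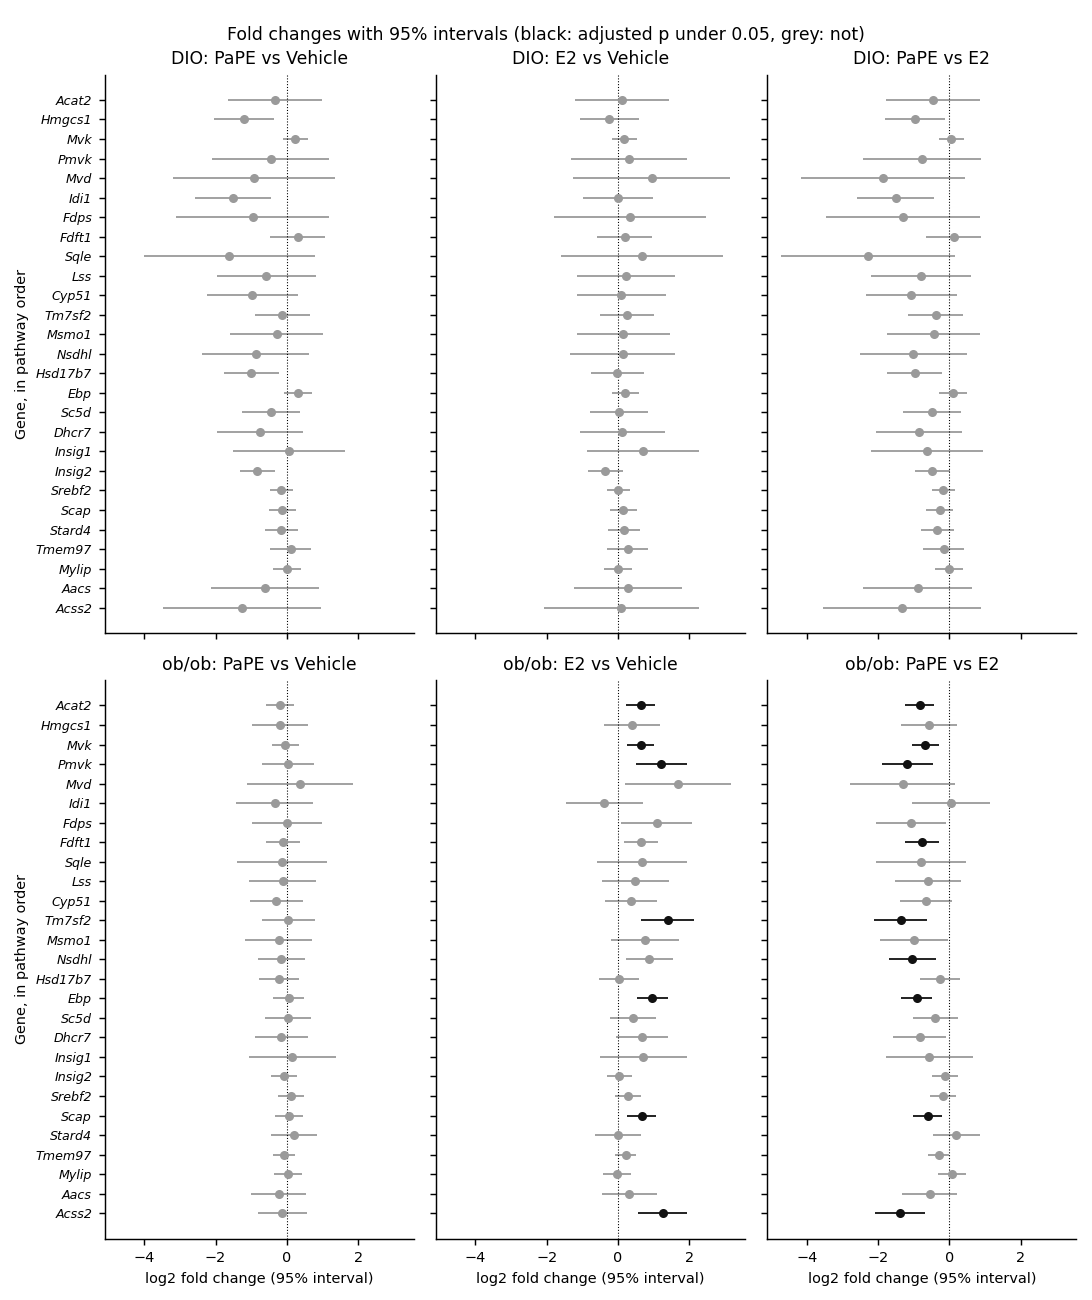
Log2 fold change of each gene in pathway order with its 95% interval by edgeR, for PaPE against vehicle, E2 against vehicle and PaPE against E2, in DIO livers (top) and ob/ob livers (bottom). Black points passed an adjusted p of 0.05, 7 for ob/ob E2 against vehicle and 9 for ob/ob PaPE against E2, and all points in DIO livers and for ob/ob PaPE against vehicle are grey.

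In ob/ob livers none of the 27 genes was called for PaPE against vehicle, and the values rested on vehicle replicate 1. The module score was -0.21, 0.29 and -0.04 in PaPE livers, against 0.62, -0.23 and -0.39 in vehicle livers, a mean of 0.01 ± 0.25 in PaPE livers and 0.00 ± 0.54 in vehicle livers (SD, n = 3 each). edgeR called 0 of 13433 genes and 0 of the 27, DESeq2 called 1 gene higher and 1 lower with 0 of the 27, and limma voom called none. At an unadjusted p under 0.05, 0 of the 27 were higher, against 0.998% of all genes, and 0 were lower, against 1.65%. The median log2 fold change of the 27 was -0.08, and 11 values were above 0. Without vehicle replicate 1 the median was 0.33, the difference in score was 0.32 in place of 0.01, and 7 of the 27 were higher at an unadjusted p under 0.05, against 1.82% of all genes, with none called. Without vehicle replicate 3 the median was -0.24, and 2 of the 27 were lower at that p, against 2.33% of all genes.

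The 4 genes with the smallest p in this comparison were Acat2, Cyp51, Hsd17b7 and Stard4. Acat2, the cytosolic thiolase that opens the pathway, had 76.3, 88.2 and 81.6 CPM in PaPE livers, against 131, 77.8 and 73.1 CPM in vehicle livers, at a log2 fold change of -0.19 with a 95% interval from -0.59 to 0.20. Cyp51, the lanosterol demethylase, had 121, 135 and 118 CPM in PaPE livers, against 244, 132 and 83.4 CPM in vehicle livers, at -0.29 with an interval from -1.03 to 0.44. In both genes the PaPE livers lay together and inside the range of the vehicle livers. Hsd17b7 had 47.0, 57.9 and 77.5 CPM in PaPE livers, against 101, 57.2 and 55.1 CPM in vehicle livers, at -0.23 ± 0.25. Stard4, a carrier of cholesterol in the cytosol, had 67.6, 123 and 76.5 CPM in PaPE livers, against 108, 70.5 and 53.5 CPM in vehicle livers, at 0.21 ± 0.29.

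E2 raised genes of the pathway against vehicle in ob/ob livers. The module score was 0.64, 0.76 and 0.65 in E2 livers, against 0.62, -0.23 and -0.39 in vehicle livers, with a mean of 0.68 ± 0.07 in E2 livers and 0.00 ± 0.54 in vehicle livers (SD, n = 3 each). Vehicle replicate 1 was therefore near the E2 level, and the difference in score was 0.68 with it and 0.99 without it. edgeR called 7 of the 27 genes higher with E2, against a background of 9.81% of all genes, and 0 lower, against 12.3%. The E2 libraries all lay above all vehicle libraries for 9 of the 27 genes, the 7 called and Mvd and Fdps, against 20.7% of all genes. The median log2 fold change of the 27 was 0.63, against 0.01 over all genes tested, and 25 values were above 0.

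The 7 genes that rose were spread over the pathway. Among the mevalonate enzymes, Acat2 had 141, 156 and 141 CPM in E2 livers, against 131, 77.8 and 73.1 CPM in vehicle livers, at a log2 fold change of 0.63 ± 0.18 (SE) and an adjusted p of 0.0286 by edgeR. Mvk had 20.7, 29.7 and 25.2 CPM in E2 livers, against 19.8, 16.3 and 12.7 CPM in vehicle livers, at 0.63 ± 0.17 and an adjusted p of 0.0215 by edgeR. Pmvk, the next kinase, had 69.0, 109 and 83.1 CPM in E2 livers, against 53.4, 29.4 and 29.4 CPM in vehicle livers, at 1.21 ± 0.31 and an adjusted p of 0.0277 by edgeR. The highest vehicle liver of each was replicate 1, and for Mvk it lay just under the lowest E2 liver.

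Later in the route, Tm7sf2, a sterol reductase that acts after Cyp51, had 94.8, 135 and 119 CPM in E2 livers, against 61.1, 32.3 and 38.7 CPM in vehicle livers. It rose by 1.40 ± 0.32 on the log2 scale, or 2.63-fold, with an adjusted p of 0.0204 by edgeR. Ebp had 225, 241 and 209.9 CPM in E2 livers, against 135, 95.6 and 115 CPM in vehicle livers, at 0.97 ± 0.20 and an adjusted p of 0.00829 by edgeR. Ebp was thus clear of vehicle replicate 1 as well, and it was called under each alternative run for this comparison, leaving out any library included.

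Scap, the escort of SREBP2, had 138, 139.6 and 137 CPM in E2 livers, against 108, 65.5 and 87.5 CPM in vehicle livers, at 0.67 ± 0.19 and an adjusted p of 0.0253 by edgeR. Acss2 had 406, 441 and 449 CPM in E2 livers, against 271, 123 and 151 CPM in vehicle livers, at 1.25 ± 0.31 and an adjusted p of 0.0220 by edgeR. The E2 livers lay close together in both genes, above every vehicle liver.

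**Figure D5:**
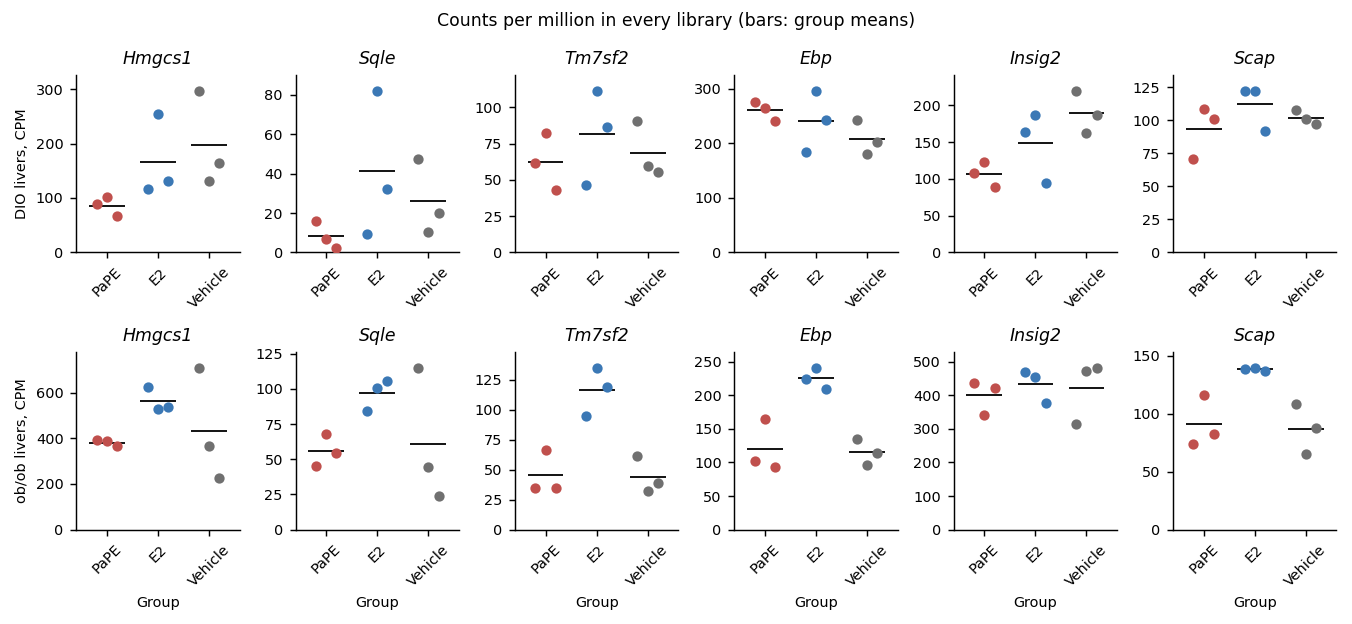
CPM of Hmgcs1, Sqle, Tm7sf2, Ebp, Insig2 and Scap in every library (points) with group means (bars), for PaPE, E2 and vehicle in DIO livers (top) and ob/ob livers (bottom), each axis starting at 0. In ob/ob livers all E2 points of Tm7sf2, Ebp and Scap lie above all vehicle and PaPE points, while Hmgcs1 and Sqle have 1 vehicle point above every E2 point.

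Of the genes not called, all but Idi1 and Mylip had values above 0, and in most of them vehicle replicate 1 reached the E2 livers. Mvd did not overlap but was wide, and had 60.4, 85.0 and 58.7 CPM in E2 livers, against 38.2, 16.3 and 8.86 CPM in vehicle livers, at a log2 fold change of 1.69 ± 0.62 and an adjusted p of 0.0980 by edgeR. Hmgcs1 had 627, 531 and 539 CPM in E2 livers, against 709, 366 and 226 CPM in vehicle livers, at 0.38 ± 0.34. Sqle had 84.5, 101 and 106 CPM in E2 livers, against 115, 44.3 and 23.99 CPM in vehicle livers, at 0.66 ± 0.53. Vehicle replicate 1 was above every E2 liver in Hmgcs1 and Sqle. Insig1 had 563, 442 and 352 CPM in E2 livers, against 510.1, 188 and 133 CPM in vehicle livers, at 0.71 ± 0.52. Insig2 had 468, 456 and 378 CPM in E2 livers, against 316, 471 and 482 CPM in vehicle livers, at 0.04 ± 0.17. Srebf2, the gene of SREBP2 itself, had 61.4, 64.9 and 58.3 CPM in E2 livers, against 68.0, 39.8 and 43.6 CPM in vehicle livers, at 0.28 ± 0.17.

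The count of calls rested on single libraries. It was 20 of the 27 without vehicle replicate 1, where edgeR called 967 of all 13729 genes higher. It was 2 without vehicle replicate 2 (829 of 13660 genes) and 1 without vehicle replicate 3 (708 of 13707). It was 1 without E2 replicate 2 (344 of 13645) and 1 without E2 replicate 3 (634 of 13650). With all libraries 1318 of 13433 genes were called higher, so calls over all genes fell in each of these fits. All 7 genes kept their sign in each of these fits. limma voom called 11 of the 27 (1325 of all 13433 genes higher), DESeq2 10 (1399 of 13433), and a fit with no filter on low counts 4 (1218 of 22081).

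PaPE was then compared with E2 in ob/ob livers. The module score was -0.21, 0.29 and -0.04 in PaPE livers, against 0.64, 0.76 and 0.65 in E2 livers, so the groups did not overlap and differed by -0.67. edgeR called 9 of the 27 genes lower with PaPE than with E2, against a background of 7.45% of all genes, and 0 higher, against 10%. All PaPE libraries lay below all E2 libraries for 19 of the 27 genes, against 18.2% of all genes tested. The E2 libraries are shared with the comparison against vehicle, so the values below are not a second observation of them.

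The 9 genes were the 7 above with Fdft1 and Nsdhl. Ebp had 102, 165 and 93.0 CPM in PaPE livers, against 225, 241 and 209.9 CPM in E2 livers, at a log2 fold change of -0.91 ± 0.20 and an adjusted p of 0.0112 by edgeR. Acat2 had 76.3, 88.2 and 81.6 CPM in PaPE livers, against 141, 156 and 141 CPM in E2 livers, at -0.83 ± 0.18 and an adjusted p of 0.0118 by edgeR. Acss2 had 113, 213 and 173 CPM in PaPE livers, against 406, 441 and 449 CPM in E2 livers, at -1.38 ± 0.31 and an adjusted p of 0.0188 by edgeR. In these genes even the highest PaPE liver was below the lowest E2 liver.

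Tm7sf2 had 34.3, 66.7 and 34.9 CPM in PaPE livers, against 94.8, 135 and 119 CPM in E2 livers, at -1.36 ± 0.32 and an adjusted p of 0.0260 by edgeR. Pmvk had 33.5, 52.8 and 28.9 CPM in PaPE livers, against 69.0, 109 and 83.1 CPM in E2 livers, at -1.18 ± 0.31 and an adjusted p of 0.0363 by edgeR. Mvk had 15.03, 18.05 and 14.5 CPM in PaPE livers, against 20.7, 29.7 and 25.2 CPM in E2 livers, at -0.67 ± 0.17 and an adjusted p of 0.0199 by edgeR. PaPE replicate 2 was the highest of the PaPE livers for 20 of the 27 genes, these 3 included.

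Fdft1, the squalene synthase, had 100.2, 110.0 and 94.2 CPM in PaPE livers, against 149, 189 and 178 CPM in E2 livers, at -0.76 ± 0.22 and an adjusted p of 0.0368 by edgeR. Nsdhl, a sterol dehydrogenase that removes a methyl group, had 42.5, 58.1 and 58.7 CPM in PaPE livers, against 86.8, 124 and 115 CPM in E2 livers, at -1.03 ± 0.29 and an adjusted p of 0.0431 by edgeR. Scap had 74.1, 116 and 82.8 CPM in PaPE livers, against 138, 139.6 and 137 CPM in E2 livers, at -0.60 ± 0.19 and an adjusted p of 0.0431 by edgeR. All PaPE livers lay below all E2 livers for these 3 genes. The count of 9 was 3 without PaPE replicate 1, where edgeR called 627 of all 13724 genes lower, and 1 without PaPE replicate 3 (348 of 13707). It was 0 without E2 replicate 2 (199 of 13645 genes) and 2 without E2 replicate 3 (445 of 13650). It was 16 without vehicle replicate 1 (981 of 13729), and all 9 signs were kept in these fits. With all libraries 1001 of 13433 genes were called lower, so calls over all genes fell as well. limma voom called 13 (1075 of all 13433 genes lower) and DESeq2 9 (1091 of 13433). A fit with no filter called 4 (955 of 22081) and a fit to the compared groups alone 16 (954 of 13186).

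By steps, E2 against vehicle in ob/ob livers gave a median log2 fold change of 0.63 for the mevalonate enzymes with 3 of 7 called, 0.65 for squalene to lanosterol with 0 of 3 called and 0.72 for lanosterol to cholesterol with 2 of 8 called. It was 0.48 for the regulators with 1 of 4 called and 0.01 for sterol handling with 0 of 3 called. PaPE against E2 gave -0.83, -0.76 and -0.87 for the 3 groups of enzymes, with 3, 1 and 3 genes called lower. The 3 sterol handling genes, Stard4, Tmem97 and Mylip, gave 0.07 with 0 called.

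Whether a ligand acted differently in the models was tested as an interaction over all 18 libraries. Higher and lower here describe the effect of a ligand in DIO relative to ob/ob mice, not levels. For PaPE, edgeR called 0 of 14171 genes (0%), and DESeq2 called 125 higher and 14 lower and limma voom 0, with none of the 27 in any. At an unadjusted p under 0.05, the PaPE effect was lower in DIO than in ob/ob mice for 1 of the 27, against 4.84% of all genes. Without ob/ob vehicle replicate 1 it was 5 of the 27, against 5.82%, and without DIO vehicle replicate 2 it was 3, against 4.44%. It was 0 without DIO PaPE replicate 3, against 4.32%, and 0 without DIO vehicle replicate 1, against 4.05%. For E2, edgeR called 2 of 14171 genes (0.0141%), and DESeq2 called 215 higher and 119 lower and limma voom 1, with none of the 27 in any. At an unadjusted p under 0.05, 2 of the 27 were lower, against 6.94% of all genes. Without DIO E2 replicate 2, edgeR called 533 genes higher and 298 lower with 0 of the 27, and 4 of the 27 were lower at an unadjusted p under 0.05, against 10.5% of all genes. Without ob/ob E2 replicate 1 it called 144 genes higher and 80 lower with 0 of the 27, and without ob/ob vehicle replicate 1, 6 of the 27 were lower at an unadjusted p under 0.05, against 7.42% of all genes. The member with the smallest p for PaPE was Insig2, with a difference in log2 fold change (DIO minus ob/ob) of -0.73 ± 0.30 (SE) and an adjusted p of 0.347 by edgeR. For E2 it was Ebp, at -0.74 ± 0.28 and an adjusted p of 0.194 by edgeR. For these genes a difference between the models was not shown.

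Genes next to the pathway were counted from lists chosen with earlier results known, and for E2 against vehicle in ob/ob livers the counts stand beside 9.81% of all genes higher and 12.3% lower. Of 16 other genes of sterol and isoprenoid metabolism, E2 raised 1 and lowered 3 in ob/ob livers, with a median log2 fold change of 0.00. Of 13 genes of SREBP processing and of its control in the endoplasmic reticulum, 4 were lower and 0 higher, with a median of -0.37. Sec23a, a coat protein of the vesicles that leave the endoplasmic reticulum, fell by 0.85, and Mbtps2, the protease that makes the second cut of SREBP, fell by 0.82, with adjusted p of 0.00314 and 0.0151 by edgeR. Scap, of the same machinery, rose in this comparison, as given above.

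The fatty acid branch under SREBP1 had the same high and low libraries as the cholesterol genes in DIO mice. The same score over 17 lipogenic genes was -0.16, -0.08 and -1.42 in PaPE livers, -0.57, 0.85 and 0.48 in E2 livers and 1.01, -0.86 and -0.15 in vehicle livers. As with the cholesterol genes, PaPE replicate 3 was the lowest and vehicle replicate 1 and E2 replicate 2 were the highest. In ob/ob mice it was -0.15, 0.41 and 0.36 in PaPE livers, 0.44, 0.46 and 0.41 in E2 livers and 0.43, -0.24 and -0.20 in vehicle livers. There the lipogenic score of PaPE replicate 3 was near that of E2 livers while its cholesterol score was not. With E2 in ob/ob livers 2 of the 17 lipogenic genes rose, and with PaPE 0 of 17 were called against vehicle in either model. Of 10 genes listed for LXR, the receptor genes Nr1h3 and Nr1h2 included, 4 were higher and 1 lower with E2 in ob/ob livers. Of 12 fasting and feeding genes 1 was higher and 2 lower there, and of 15 clock genes 2 were higher and 5 lower.

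Markers of some other cell types were also higher in ob/ob E2 livers than in the other ob/ob livers. Endothelial markers were higher for 10 of 11 genes with E2 against vehicle, at a summed 407 to 531 CPM in E2 livers, against 234 to 265 CPM in vehicle livers. Kupffer cell and macrophage markers were higher for 8 of 12 genes, at 687 to 959 CPM in E2 livers, against 438 to 555 CPM in vehicle livers. Neutrophil markers were higher for 8 of 10 genes, at 95.2 to 366 CPM in E2 livers, against 6.49 to 8.73 CPM in vehicle livers. Of the lymphocyte markers, 2 of 7 tested were higher, at 11.3 to 16.5 CPM summed over 12 genes in E2 livers, against 3.67 to 12.3 CPM in vehicle livers. In PaPE livers the ranges were 212 to 251 CPM for endothelial, 387 to 568 CPM for Kupffer cell, 3.23 to 71.0 CPM for neutrophil and 3.52 to 6.29 CPM for lymphocyte markers. Of the 11 hepatocyte markers, 5 were higher and 1 lower with E2 against vehicle, with a median log2 fold change of 0.06. Their sum was 150208 to 166029 CPM in E2 livers, 92640 to 123743 CPM in vehicle livers and 101818 to 125044 CPM in PaPE livers. Of 12 stellate cell markers 1 was higher, and of 8 cholangiocyte markers 0 were called. The part of these shifts in the values of the cholesterol genes was not tested. Vehicle replicate 1 of ob/ob mice, whose cholesterol score of 0.62 was just below the E2 livers, stood as follows in the same score over each marker list. Endothelial scores were 0.64, 0.97 and 0.93 in E2 livers, against -0.01 in this library. Kupffer cell scores were 0.545, 0.880 and 0.999 in E2 livers, against 0.08 in this library. Neutrophil scores were 3.23, 5.11 and 4.23 in E2 livers, against 0.08 in this library. In these lists the library was below every E2 liver. Lymphocyte scores were 0.79, 1.51 and 1.08 in E2 livers, against 0.91 in this library. Hepatocyte scores were 0.26, 0.20 and 0.19 in E2 livers, against 0.16 in this library. The lymphocyte score thus lay within the E2 range and the hepatocyte score just below it. These are values of 1 library, and their bearing on the cholesterol genes was not tested.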

How the data were processed

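Liver RNA-seq of 18 libraries was used, 3 for each of PaPE, E2 and vehicle in DIO and in ob/ob mice. The authors deposited raw read counts per gene, 1 table per model, which the file headers and processing notes tie to STAR (2.7.6a) and featureCounts (2.0.0, counted by strand) on the RefSeq genes of GRCm39. The paper's methods name other tools for mapping, and the counts were taken as the files describe them. The 4 tables with the authors' own fold changes and p-values were not used. Reads that match near copies of a gene, such as Idi1 and its neighbour Idi2, make its counts uncertain.

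Counts were filtered with filterByExpr, scaled by TMM and tested in R (4.3.3) with the robust quasi-likelihood test of edgeR (4.0.16), with 1 mean per group and the 9 libraries of a model in a fit. Interactions used all 18 libraries. The p-values were adjusted by Benjamini-Hochberg over all genes tested, with a threshold of 0.05. An exact test of 3 libraries against 3 cannot go below 0.1 and was not used. Log2 CPM had a prior count of 2. The replicate numbers follow accession order. The labels speak of biological replicates. No pair of libraries in a group agreed within sampling noise. The model and the preparation of its libraries cannot be told apart, so levels were compared within a model. DESeq2 (1.42.0) and limma voom (3.58.1) were alternatives, with other filters, a length correction and each library left out. Full values are given for genes of the 27 with an adjusted p under 0.05, for the 4 with the smallest p where a comparison within a model called none, and for the 3 with the widest vehicle range in each model, and up to 4 genes of a list by smallest p. Further genes were named after their values were seen. The genes and lists were chosen with earlier results of these data known. Intervals cover the spread between these libraries only.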

Additional observations from a re-analysis of the deposited data

How the results depend on the processing

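With 3 libraries per group the number of called genes moved with the test and with single libraries, and the cause was not tested. For PaPE against vehicle in DIO livers, 0 of the 27 genes were called lower by edgeR, 4 by DESeq2 and 1 with the compared groups alone in the fit. Over all genes these fits called 0, 228 and 306 lower. For PaPE against E2 in DIO livers DESeq2 called 1 lower. For E2 against vehicle in ob/ob livers, 7 were called higher by edgeR, 11 by limma voom and 4 with no filter on low counts, and 1 to 20 with 1 library left out. Over all genes, 344 to 1514 were called higher with 1 library left out. For PaPE against E2 in ob/ob livers, 9 were called lower, 4 with no filter and 16 with the compared groups alone in the fit, and 0 to 16 with 1 library left out. Over all genes, 199 to 1094 were called lower there with 1 library left out. The counts under the other settings, including DESeq2 size factors, at least 10 counts in every library and the length correction, stayed within 1.5 times of those reported, as did 0 calls for PaPE against vehicle in ob/ob livers and for both interactions. Ebp alone of the 7 was called in every fit of E2 against vehicle in ob/ob livers.

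Of the values of named genes under all alternatives, 428 kept sign and side of the threshold, 72 lost a call, 6 gained one and 6 changed sign, none of these 6 called. With 1 library left out, PaPE against vehicle in ob/ob livers gave -0.35 to 0.12 for Acat2, -0.59 to 0.22 for Cyp51 and -0.44 to 0.12 for Hsd17b7, positive only without vehicle replicate 1. Stard4 gave -0.0948 to 0.53, with negative values only without PaPE replicate 2 and, at -0.00067, without vehicle replicate 3. Tmem97 with E2 in DIO livers gave -0.0054 to 0.53, negative only without E2 replicate 2. The module score differences moved by less than 1 SD of the libraries under other scalings, prior counts of 0.5 and 5, the 18 enzymes alone and the median in place of the mean. The SD of vehicle libraries was 0.61 in DIO and 0.54 in ob/ob mice, so this bound cannot show that the smaller differences kept their sign. No paired analysis was possible because the groups compared share no replicate numbers in the labels. At these depths counting error is small for most of the genes beside the spread between livers, which sets the intervals. It is larger for Idi1, Mvd and Sqle in DIO PaPE livers, where the lowest counts were 18, 25 and 34.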
